A study of Homo sapiens with 12 samples.

Results

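The nuclear genes of respiratory complexes II to V were described in LN229 cells, an established human glioblastoma cell line with wild-type IDH. The rule took every protein-coding gene outside mitochondrial DNA whose symbol begins with SDHA, SDHB, SDHC, SDHD, UQCR, UQCC, COX or ATP5, together with CYC1 and CYCS, and found 68 of 21462 genes. By role these were 48 structural subunits, 16 assembly factors and 4 others, namely the carrier CYCS, the inhibitor ATP5IF1, the supercomplex factor COX7A2L and the read-through gene ATP5MF-PTCD1. RNA was sequenced from 6 cultures given 100 mM metformin, a biguanide used against type 2 diabetes, for 5 h and from 6 control cultures. Cells of both groups grew in DMEM with fetal bovine serum and antibiotics. The labels call the control cultures untreated, the study's figure legend calls them vehicle, and all 12 libraries come from 1 cell line, so p-values describe the spread between its cultures.

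Complex II (succinate dehydrogenase) feeds electrons from succinate to ubiquinone, complex III passes them to cytochrome c, complex IV (cytochrome c oxidase) hands them to oxygen, and complex V (ATP synthase) uses the proton gradient to make ATP. Complex II is encoded wholly in the nucleus, while complexes III, IV and V also hold subunits made from mitochondrial DNA. Assembly factors are not part of the finished complex: they attach FAD, insert iron-sulfur clusters, make heme A, deliver copper or hold partly built modules. Metformin is known as an inhibitor of complex I, which is not among these genes.

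Levels are given as TPM, a transcript share that corrects for gene length and sums to the same total in each library. Exon reads totalled 14331617 to 19516144 in metformin libraries and 19583535 to 21836186 in control libraries. Metformin replicate 1 stood apart: it had the lowest total, where the other 5 metformin libraries had at least 18525144, and 38.1% of its exon reads crossed a junction, against 45.7% to 48.1% in the other metformin libraries and 44.7% to 46.7% in control libraries. Results that rest on it are given with and without it. Fold changes are metformin over control on the log2(TPM + 1) scale, which understates the change of low genes, and limma tested them over the 11306 genes that averaged 1 TPM or more. Over these genes the median fold change on that scale was -0.37 in TPM, and -0.22 without metformin replicate 1. It was 0.02 after median-ratio scaling, which divides a library by the median over genes of its ratio to the geometric mean library, so a gene at 0 in TPM lay above the median gene. Means are given ± SD over the 6 libraries of a group. The glioma markers VIM and CD44 were present in every library, while SOX2 and GFAP were at or near 0 in both groups. Of 13 markers of endothelium, leukocytes, neurons and oligodendrocytes, 11 averaged below 1 TPM in both groups, and the 13 summed to 12.4 to 34.8 TPM in metformin libraries and 27.8 to 30.4 TPM in control libraries.

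In TPM 9 of 16 assembly factors and 1 of 40 structural subunits were lower after metformin. Of the 68 members 60 were tested, and 13 passed an adjusted p of 0.05 with limma. The 3 higher ones (5.00% of those tested) were the structural subunits UQCRH, COX6A1 and COX7B, where 8.00% of all genes tested were higher. The 10 lower ones (16.7%) were 9 assembly factors and the structural subunit UQCRFS1, where 41.8% of all genes tested were lower. The 9 assembly factors were 56.2% of those tested and the 1 structural subunit 2.50%, and 0 assembly factors were called higher. The share of assembly factors that fell was closer to that of all genes than the share of structural subunits was. The median log2 fold change was -0.52 in assembly factors and 0.16 in structural subunits, beside -0.37 in all genes tested. Without metformin replicate 1, 12 of 16 assembly factors and 3 of 40 structural subunits were lower and 7 structural subunits were higher, where 49.3% of all genes were lower and 17.1% higher. The TPM ranges of the groups did not overlap in 11 members, all lower in metformin, 9 of them assembly factors, where 37.3% of all genes tested had such ranges lower and 4.69% higher. In bulk RNA, fewer cells in a state and less RNA per cell cannot be told apart.

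After median-ratio scaling the roles still differed, at higher values. Then 1 of 16 assembly factors was higher and 5 were lower, and 11 of 40 structural subunits were higher and 0 lower, where 23.4% of all genes were higher and 25.5% lower. The assembly factors that stayed lower were SDHAF3, SDHAF4, COX10, COX15 and COX18, and the higher one was COX16. The 3 structural subunits higher in TPM were also higher here. Median log2 fold changes were -0.09 in assembly factors and 0.60 in structural subunits. With edgeR's quasi-likelihood test on exon read counts, 1 assembly factor was higher and 6 lower, and 18 structural subunits were higher and 0 lower, where 24.5% of all genes were higher and 26.0% lower. The number of structural subunits called higher thus depended on the scaling, and 5 assembly factors (31.25%) were lower under all 3 fits. The share of all genes lower under all 3 was not counted. It is at most the 25.5% that were lower after scaling. Without metformin replicate 1, median-ratio scaling gave 22 higher and 9 lower members (33.9% and 33.3% of all genes) and edgeR 21 higher and 10 lower (32.4% and 34.3%).

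**Figure D1:**
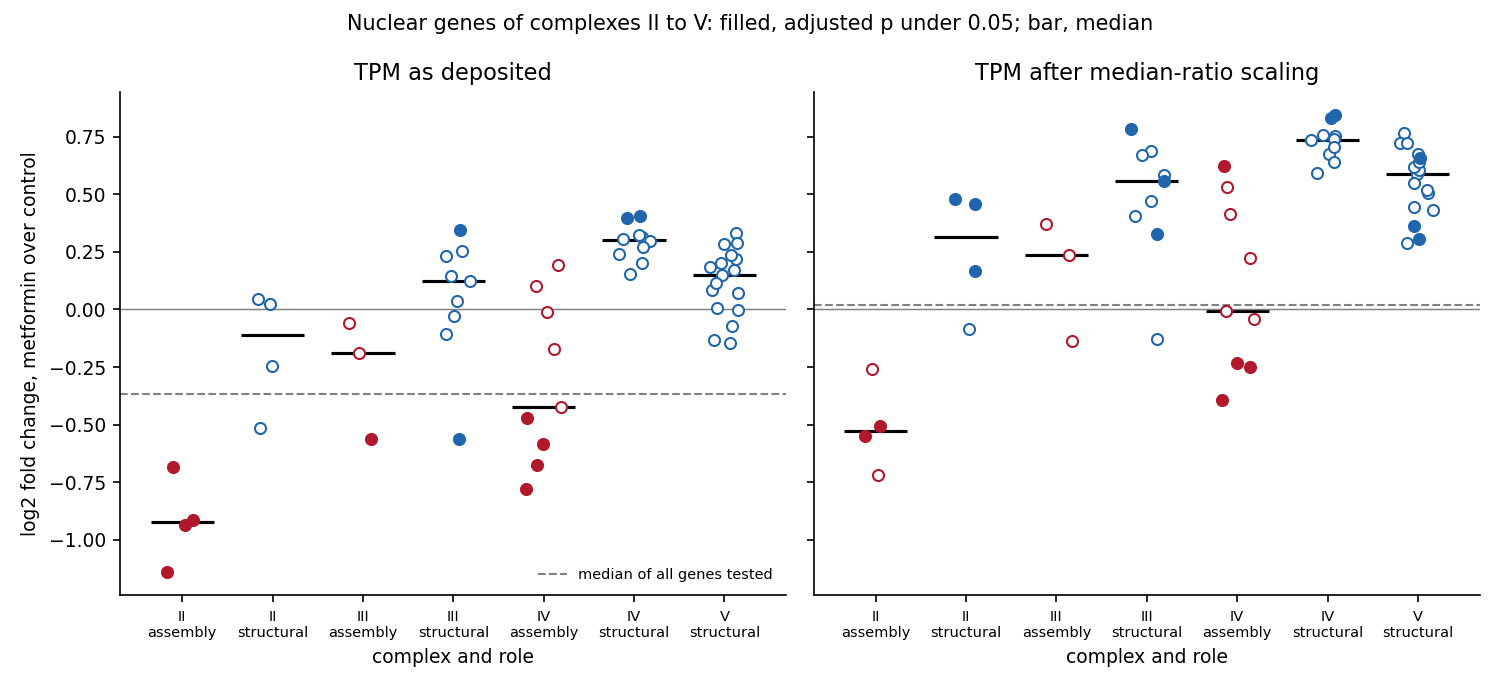
Log2 fold change of metformin over control for each tested member, by complex and role, in TPM (left) and after median-ratio scaling (right). Filled points passed an adjusted p of 0.05, bars are medians, and the dashed line is the median of all genes tested. Assembly factors of complex II have the lowest median in both panels, and 0 structural subunits are called lower after scaling.

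The gap between the roles was also read within each library, where a scaling factor common to all genes nearly cancels. Each library's median deviation from the control mean was taken over the 16 assembly factors and over the 40 structural subunits. The assembly median minus the structural median ran from -1.46 to -0.19 (median -0.48) in metformin libraries and from -0.12 to 0.17 (median -0.02) in control libraries. All 6 metformin libraries lay below all 6 control libraries. The lowest value was that of metformin replicate 1, and the other 5 metformin libraries ran from -0.73 to -0.19. Within complexes the assembly median was below the structural median by 0.81 in complex II and by 0.73 in complex IV on the log2 scale, against 0.31 in complex III. With edgeR these gaps were 0.79, 0.97 and 0.03 for complexes II, IV and III. Leaving out metformin replicate 1, they were 0.83, 0.40 and 0.42 in TPM, so that the gap of complex IV was no longer above that of complex III. Over all complexes the assembly median minus the structural median of the fold changes was -0.68 in TPM and -0.69 after median-ratio scaling, but -0.19 after quantile normalization.

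**Figure D2:**
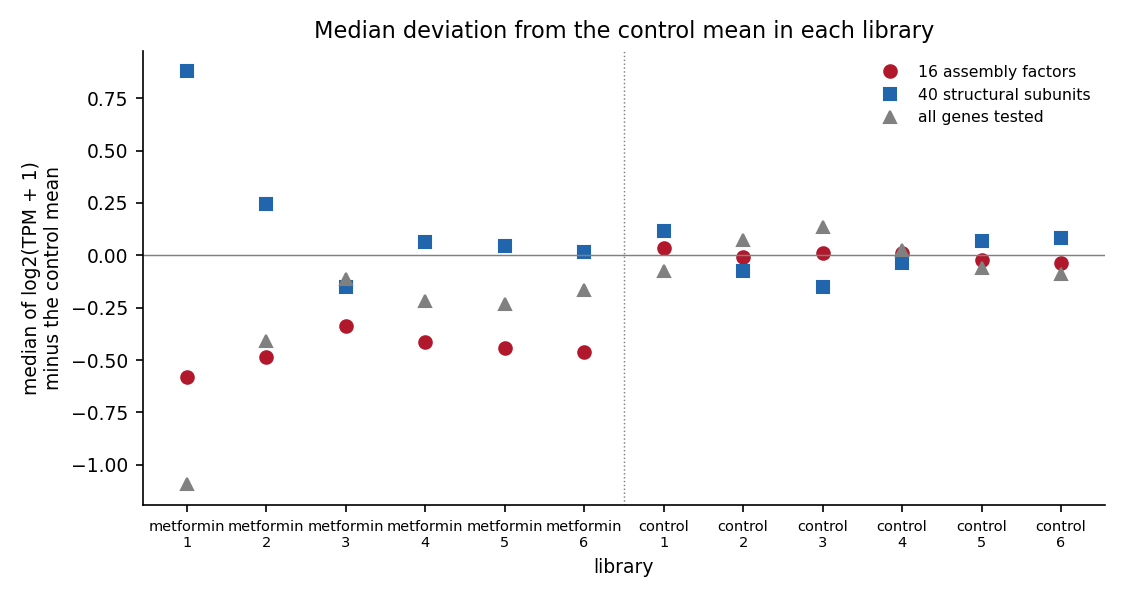
Median deviation of log2(TPM + 1) from the control mean in each of the 12 libraries, for assembly factors, structural subunits and all genes tested. Assembly factors lie below structural subunits in all 6 metformin libraries, between -0.58 and -0.34, and between -0.04 and 0.03 in control libraries.

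The 2 roles also differed in level and length. Mean control TPM had a median of 29.5 over the 16 assembly factors and of 245 over the 40 structural subunits, and annotated exon length a median of 2385 bp and 1649 bp. Over the 60 members, fold change without metformin replicate 1 went with the control level at a Spearman rho of 0.64 and with exon length at -0.19, and fold change over all libraries went with exon length at -0.39, a description over genes that share the same libraries. The 13 structural subunits with exons at least as long as the median assembly factor had a median log2 fold change of 0.04 in TPM, with 1 higher and 1 lower. The 6 structural subunits at no more than 100 TPM in control libraries had a median of 0.17, with 1 higher and 0 lower, and without metformin replicate 1 a median of 0.01, with 1 higher and 1 lower. Assembly factors averaged at most 68.2 TPM in control libraries. The lowest structural subunits of complexes III, IV and V averaged 78.1, 83.3 and 79.5 TPM there. The 6 were thus not matched to the assembly factors in level, and the part of level in the contrast was not tested.

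All 4 assembly factors of complex II fell in TPM, where 41.8% of all genes tested were lower. Gene positions are those of the files. SDHAF1, which guards the iron-sulfur subunit while its clusters are put in, had 7.38 to 25.9 TPM (median 11.3) in metformin libraries, against 24.1 to 30.6 TPM (median 27.7) in control libraries. With all libraries its log2 fold change was -1.14 ± 0.24 (SE; limma adjusted p = 0.0018), and its groups overlapped only through metformin replicate 1, without which the gene had a difference of -1.35 in log2 (limma adjusted p = 4.75e-06). SDHAF3 (ENSG00000196636, chr7:97117698-97181763, plus strand), which also serves cluster insertion into SDHB, had 5.71 to 18.5 TPM (median 16.8) in metformin libraries, against 25.9 to 29.6 TPM (median 27.8) in control libraries, so that the groups did not overlap. The gene's log2 fold change was -0.91 ± 0.23 (SE; limma adjusted p = 0.00496), and -0.68 without metformin replicate 1, where it was still called. SDHAF4 (ENSG00000154079, chr6:70566917-70589569, plus strand), which binds SDHA once FAD is attached, had 4.19 to 6.22 TPM (median 5.23) in metformin libraries, against 8.33 to 13.0 TPM (median 10.9) in control libraries, again without overlap. Here the log2 fold change was -0.93 ± 0.13 (SE; limma adjusted p = 7.81e-05), from 268 exon reads in the metformin libraries and 619 in the control libraries together. SDHAF2, which is needed for FAD attachment to SDHA, had 16.3 to 22.5 TPM (median 19.6) in metformin libraries, against 27.9 to 34.4 TPM (median 31.3) in control libraries. Its log2 fold change was -0.68 ± 0.10 (SE; limma adjusted p = 9.34e-05). Only 50.9% of the SDHAF2 exon reads were unique by the files' own column, and with those reads alone edgeR gave a log2 fold change of 0.03 (adjusted p = 0.953), so the call of SDHAF2 is uncertain. Relative to the median gene, SDHAF3 was lower at -0.51 (limma adjusted p = 0.00269) and SDHAF4 was lower at -0.55 (limma adjusted p = 0.00887), and the calls of SDHAF1 and SDHAF2 were lost with all 6 metformin libraries but held without metformin replicate 1 (log2 fold changes -1.10 and -0.48).

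**Figure D3:**
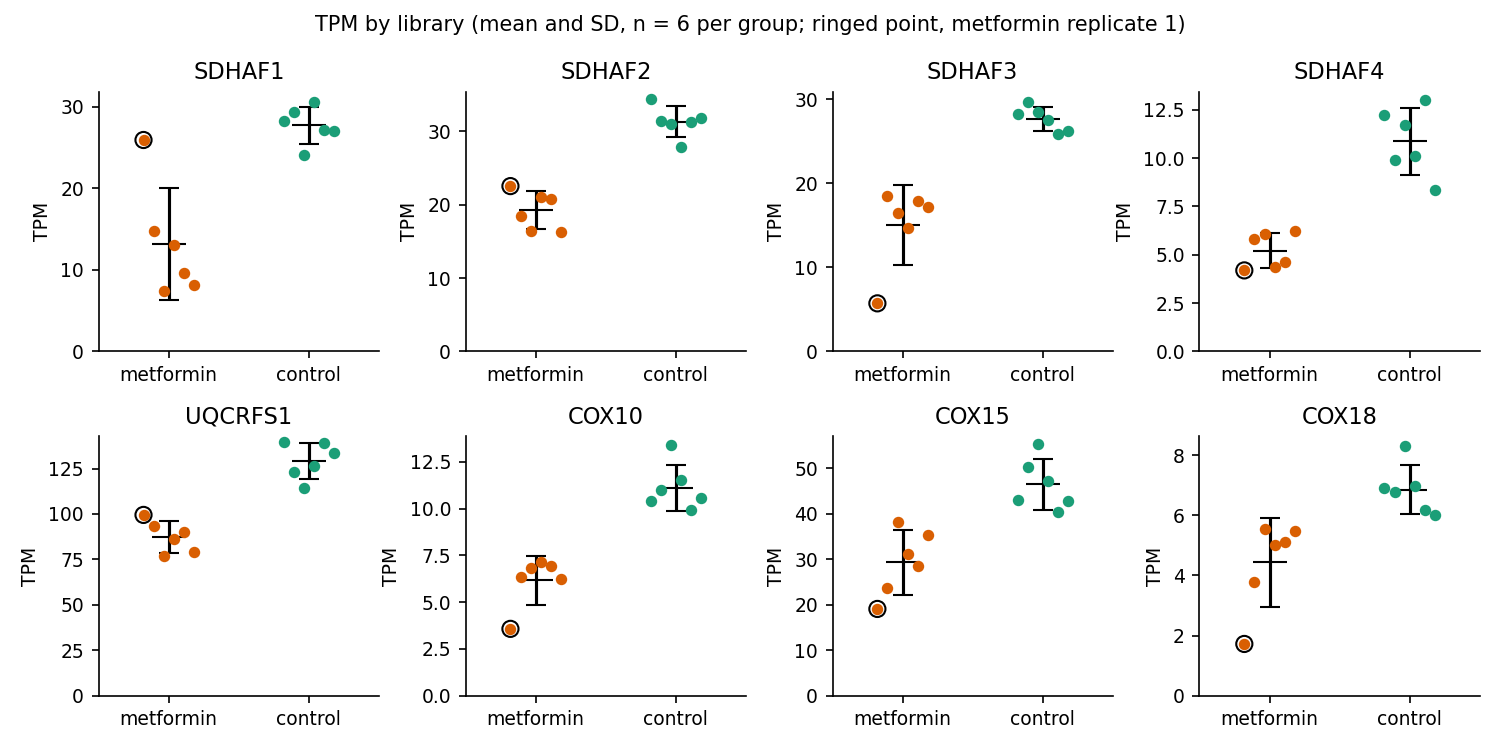
TPM by library of the 4 complex II assembly factors, UQCRFS1, COX10, COX15 and COX18, metformin on the left and control on the right of each panel, with mean and SD (n = 6). The metformin points lie below the control points in each panel except that of SDHAF1, where metformin replicate 1 (ringed, 25.9 TPM) is among the control values.

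The 4 subunits of complex II did not pass the test in TPM, where 8.00% of all genes were higher and 41.8% lower. SDHA, the flavoprotein that oxidises succinate, had 119 to 201 TPM (median 186) in metformin libraries, against 165 to 175 TPM (median 170) in control libraries. SDHB, the iron-sulfur subunit, had 107 to 171 TPM (median 164) in metformin libraries, against 141 to 162 TPM (median 152) in control libraries. For both the lowest metformin value was that of replicate 1. Without replicate 1 SDHA was higher than control with a difference of 0.16 in log2 (limma adjusted p = 0.00554) and SDHB with a difference of 0.13 in log2 (limma adjusted p = 0.0172), and after median-ratio scaling SDHA was higher at 0.48 (limma adjusted p = 0.000338) and SDHB was higher at 0.46 (limma adjusted p = 0.00415). Exon reads of SDHA were unique in 32.1% only, and 3 pseudogenes in GENCODE release 29 carry its name, so its level is uncertain. SDHC, a membrane anchor, had 9.31 to 20.4 TPM (median 18.2) in metformin libraries, against 18.7 to 21.9 TPM (median 19.7) in control libraries. Its log2 fold change was -0.24 in TPM (limma adjusted p = 0.227) and 0.17 after scaling (limma adjusted p = 0.014), a change of sign. SDHD, the other anchor, had 23.2 to 90.8 TPM (median 84.3) in metformin libraries, against 92.1 to 105 TPM (median 99.4) in control libraries. Its groups did not overlap, but with replicate 1 at 23.2 TPM its log2 fold change of -0.51 ± 0.28 (SE; limma adjusted p = 0.149) did not pass, and without that library it fell with a difference of -0.21 in log2 (limma adjusted p = 0.00119). After scaling SDHD lay at -0.08 with all libraries and 0.05 without replicate 1 and was not called.

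Among the structural subunits of complex III, UQCRFS1 (ENSG00000169021, chr19:29205320-29213151, minus strand) fell. It encodes the Rieske iron-sulfur protein, which is inserted late in assembly. UQCRFS1 had 76.7 to 99.5 TPM (median 88.0) in metformin libraries, against 114 to 140 TPM (median 130) in control libraries, and the groups did not overlap. With all libraries its log2 fold change was -0.56 ± 0.08 (SE; limma adjusted p = 0.000105), the only structural call in that direction. Relative to the median gene the value was -0.13 with all libraries (limma adjusted p = 0.657) and -0.34 without metformin replicate 1 (limma adjusted p = 0.0238). UQCRH, the hinge protein that contacts cytochrome c1, rose. It had 698 to 1214 TPM (median 860) in metformin libraries, against 627 to 788 TPM (median 713) in control libraries, with 5 of 6 metformin libraries above the highest control library. The gene's log2 fold change was 0.35 ± 0.12 (SE; limma adjusted p = 0.0274), and it was also higher after scaling. The core protein genes UQCRC1 and UQCRC2 were not called in TPM. UQCRC1 had 347 to 401 TPM (median 363) in metformin libraries, against 326 to 347 TPM (median 335) in control libraries. UQCRC2 had 90.4 to 187 TPM (median 181) in metformin libraries, against 168 to 180 TPM (median 175) in control libraries, and its lowest value was that of metformin replicate 1. After scaling both were higher, with log2 fold changes of 0.56 and 0.33, and for UQCRC2 the sign turned from -0.11 in TPM. CYC1, the cytochrome c1 subunit, averaged 602 ± 39.4 TPM in metformin libraries and 614 ± 31.6 TPM in control libraries and its log2 fold change of -0.03 was not called.

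The assembly factors UQCC1, UQCC2 and UQCC3 serve the making and early assembly of cytochrome b. UQCC1 had 15.6 to 30.0 TPM (median 27.8) in metformin libraries, against 35.8 to 40.4 TPM (median 38.1) in control libraries, without overlap. Here the log2 fold change was -0.56 ± 0.14 (SE; limma adjusted p = 0.0049), and edgeR on exon reads also called it lower with -0.17 (adjusted p = 0.0199), while the limma call was lost after scaling (-0.14). Without metformin replicate 1 UQCC1 lay at -0.43 in TPM and was still called. UQCC2 averaged 69.2 ± 30.9 TPM in metformin libraries and 68.2 ± 6.76 TPM in control libraries. UQCC3 averaged 24.7 ± 15.1 TPM in metformin libraries and 25.7 ± 2.46 TPM in control libraries. Each had its highest value in metformin replicate 1. Neither passed with all libraries, and without replicate 1 both were lower in TPM, with a difference of -0.26 in log2 (limma adjusted p = 0.0129) for UQCC2 and a difference of -0.45 in log2 (limma adjusted p = 0.000192) for UQCC3, where the median of all genes was -0.22. After median-ratio scaling UQCC2 lay at 0.37 and UQCC3 at 0.23 with all libraries, and at -0.001 and -0.19 without replicate 1, and neither was called in either case. Cytochrome c itself, CYCS, the soluble carrier between complexes III and IV, had 83.3 to 190 TPM (median 169) in metformin libraries, against 131 to 152 TPM (median 144) in control libraries. Metformin replicate 1 lay below all control libraries, and the other 5 metformin libraries, at 154 to 190 TPM, lay above them. CYCS was not called in TPM with all libraries (log2 fold change 0.08) but was higher without replicate 1, with a difference of 0.25 in log2 (limma adjusted p = 0.00143), and after scaling it was higher at 0.52 (limma adjusted p = 2.07e-05). GENCODE release 29 lists 40 pseudogenes under its name, and all its exon reads were unique in the files.

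Heme A, the cofactor of the COX1 subunit, is made in sequence by COX10 and COX15, and both of their genes fell. COX10 (ENSG00000006695, chr17:14069490-14231736, plus strand), heme O synthase, had 3.57 to 7.15 TPM (median 6.57) in metformin libraries, against 9.94 to 13.4 TPM (median 10.8) in control libraries. Its log2 fold change was -0.78 ± 0.14 (SE; limma adjusted p = 0.000644). COX15 (ENSG00000014919, chr10:99711844-99732100, minus strand), heme A synthase, had 19.1 to 38.2 TPM (median 29.8) in metformin libraries, against 40.3 to 55.2 TPM (median 45.2) in control libraries. With all libraries its log2 fold change was -0.68 ± 0.16 (SE; limma adjusted p = 0.00324). The groups overlapped for neither gene, and both were also lower after scaling, COX10 at -0.39 and COX15 at -0.25. Without metformin replicate 1 COX10 lay at -0.65 and COX15 at -0.56 in TPM, both still called. COX18 and COX20, which serve insertion and handling of the COX2 subunit, were lower in TPM. COX18 (ENSG00000163626, chr4:73052362-73069755, minus strand) had 1.72 to 5.54 TPM (median 5.06) in metformin libraries, against 6.01 to 8.30 TPM (median 6.84) in control libraries. The gene's log2 fold change was -0.58 ± 0.20 (SE; limma adjusted p = 0.0281), and it was lower at -0.23 (limma adjusted p = 0.0424) after scaling. Without metformin replicate 1 COX18 lay at -0.39 in TPM and was still called. COX20 had 27.2 to 36.4 TPM (median 32.5) in metformin libraries, against 44.0 to 46.1 TPM (median 44.6) in control libraries. Here the log2 fold change was -0.47 ± 0.08 (SE; limma adjusted p = 0.000226), but it was at -0.04 after scaling (limma adjusted p = 0.809), and 43.5% of its exon reads were unique. With those reads alone edgeR put COX20 at 0.01 and did not call it. COX10 and COX18 are low genes, with 1810 and 1315 exon reads over the metformin libraries.

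The copper factors and the remaining complex IV factors among the members showed no call in TPM. SCO1 and SCO2, which are outside the rule, were lower in TPM, at -1.14 (limma adjusted p = 4.73e-06) and -0.98 (limma adjusted p = 0.0136). After scaling SCO1 was still lower at -0.74 and SCO2 was not called. They are counted with the other factors outside the rule below. COX17, the copper chaperone, averaged 37.4 ± 12.8 TPM in metformin libraries and 36.6 ± 6.01 TPM in control libraries. COX19, of the same system, averaged 7.44 ± 1.13 TPM in metformin libraries and 8.44 ± 0.426 TPM in control libraries. COX11, which inserts copper into COX1, had 10.9 to 24.1 TPM (median 21.1) in metformin libraries, against 24.7 to 31.0 TPM (median 25.7) in control libraries. The groups did not overlap, but its log2 fold change of -0.43 ± 0.17 (SE; limma adjusted p = 0.0513) stopped short of the threshold. It passed without metformin replicate 1, with a difference of -0.26 in log2 (limma adjusted p = 0.00658), and lay at -0.01 after scaling. COX14 averaged 53.0 ± 22.0 TPM in metformin libraries and 46.9 ± 4.98 TPM in control libraries. COX16 averaged 74.5 ± 9.61 TPM in metformin libraries and 64.8 ± 4.96 TPM in control libraries, with a TPM log2 fold change of 0.19 that was not called, and after scaling it was higher at 0.62 (limma adjusted p = 0.0453), the only assembly factor higher there. COX16 overlaps the read-through gene SYNJ2BP-COX16, and 53.3% of its exon reads were unique.

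All 10 tested structural subunits of complex IV had a log2 fold change above 0, from 0.16 to 0.41 in TPM and from 0.59 to 0.84 after scaling, and 2 passed limma in each case. Without metformin replicate 1 they ran from 0.03 to 0.30 in TPM with the same 2 calls, COX6A1 and COX7B, while 6 of 10 were higher after scaling without it. EdgeR called 6 of 10 higher with and without that library. Of all genes, 8.00% were higher in TPM, 23.4% after scaling and 24.5% with edgeR. Without that library these shares were 17.1%, 33.9% and 32.4%. COX6A1, the common isoform of subunit 6A, had 843 to 1606 TPM (median 1026) in metformin libraries, against 771 to 898 TPM (median 835) in control libraries. Its log2 fold change was 0.41 ± 0.13 (SE; limma adjusted p = 0.0214). The protein-coding gene AL021546.1 overlaps COX6A1 on the same strand. COX7B, subunit 7B, had 82.8 to 163 TPM (median 102) in metformin libraries, against 76.0 to 91.5 TPM (median 83.2) in control libraries. With all libraries its log2 fold change was 0.40 ± 0.14 (SE; limma adjusted p = 0.0315). In both genes 5 of 6 metformin libraries were above the highest control library, and the metformin libraries were led by replicate 1. COX4I1 and COX5A join COX1 early in assembly. COX5A averaged 330 ± 88.7 TPM in metformin libraries and 290 ± 26.8 TPM in control libraries. COX5B, a zinc-binding subunit, averaged 331 ± 113 TPM in metformin libraries and 270 ± 25.4 TPM in control libraries, and none of the 3 was called in TPM.

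Complex IV has tissue isoforms, and the cells used the common ones. COX4I1 had 289 to 669 TPM (median 322) in metformin libraries, against 256 to 325 TPM (median 297) in control libraries, while COX4I2, the isoform of lung and low oxygen, had a single exon read in the metformin libraries and 0 in the control libraries. COX6A2 and COX7A1, the heart and muscle isoforms, had 0 exon reads in all 12 libraries, and so had COX7B2. Their common counterparts were read instead, COX7A2 with 206 to 467 TPM (median 253) in metformin libraries, against 203 to 246 TPM (median 225) in control libraries. COX8A averaged 1023 ± 402 TPM in metformin libraries and 847 ± 82.1 TPM in control libraries, and COX8C had 2 exon reads in each group. COX6B1 had 203 to 629 TPM (median 223) in metformin libraries, against 194 to 247 TPM (median 219) in control libraries, and COX6B2, known from testis, 0.232 to 0.672 TPM (median 0.582) in metformin libraries, against 0.0423 to 0.141 TPM (median 0.106) in control libraries. COX6B2 was below the filter and untested. Its groups did not overlap, with 58 exon reads in metformin libraries and 13 in control libraries, at a level far under that of COX6B1. AC020922.1 overlaps COX6B2 on the same strand. FAM71E2 lies 189 bp upstream on that strand, at a mean of 0.398 TPM in metformin libraries and 0.00590 TPM in control libraries. Whether the reads of COX6B2 come from its own transcript was not tested. COX7A2L averaged 57.8 ± 4.22 TPM in metformin libraries and 61.7 ± 1.36 TPM in control libraries and was not called. In complex III the hinge gene UQCRH had a near copy, UQCRHL, at 0.124 to 0.504 TPM (median 0.374) in metformin libraries, against 0 to 0.217 TPM (median 0.116) in control libraries, from 33 exon reads in metformin libraries and 12 in control libraries, and it was untested. ATP5MGL, the copy of the complex V subunit gene ATP5MG, had 0 exon reads.

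None of the 17 tested structural subunits of complex V passed limma in TPM, where 8.00% of all genes were higher and 41.8% lower. Their log2 fold changes in TPM ran from -0.15 to 0.33. The catalytic beta subunit, ATP5F1B, was the most abundant member with 1601 to 2401 TPM (median 2308) in metformin libraries, against 1826 to 1910 TPM (median 1895) in control libraries. Metformin replicate 1 lay below every control library and the other 5 metformin libraries above every one. With all libraries its log2 fold change of 0.22 ± 0.09 (SE; limma adjusted p = 0.0648) did not pass, and it rose without replicate 1, with a difference of 0.31 in log2 (limma adjusted p = 1.67e-06). The alpha subunit, ATP5F1A, had 173 to 335 TPM (median 322) in metformin libraries, against 309 to 324 TPM (median 317) in control libraries, and its log2 fold change was -0.13 in TPM (not called) and 0.31 after scaling (limma adjusted p = 0.0022). The gamma subunit of the central stalk, ATP5F1C, had 402 to 500 TPM (median 460) in metformin libraries, against 473 to 530 TPM (median 509) in control libraries. It was not called with all libraries (log2 fold change -0.15) and fell without replicate 1, with a difference of -0.11 in log2 (limma adjusted p = 0.0315). After scaling ATP5F1C lay at 0.29 and was not called, so its direction turned with the scaling. ATP5PB, the b subunit of the peripheral stalk, had 183 to 308 TPM (median 296) in metformin libraries, against 274 to 298 TPM (median 289) in control libraries. It lay at -0.07 in TPM (limma adjusted p = 0.616) and was higher at 0.36 (limma adjusted p = 0.00811) after scaling. Over all complexes 12 members turned from below 0 in TPM to above 0 after scaling and 0 the other way. Scaling raised the median of all genes from -0.37 to 0.02, so that turns in this direction come with the shift itself. Of 11306 genes 2653 were above 0 in TPM and 5839 after scaling, and of 60 members 35 and 47. After scaling 4 of the 12 were called, namely ATP5F1A, ATP5PB, SDHC and UQCRC2.

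The 3 genes of the rotor subunit c, whose mature proteins are alike, kept their order of levels. ATP5MC1 averaged 526 ± 213 TPM in metformin libraries and 451 ± 39.2 TPM in control libraries. ATP5MC2 averaged 280 ± 88.6 TPM in metformin libraries and 242 ± 21.3 TPM in control libraries. ATP5MC3 averaged 134 ± 12.3 TPM in metformin libraries and 127 ± 7.54 TPM in control libraries, and none of them was called in TPM. ATP5MC1 and ATP5MC2 were highest in metformin replicate 1 (948 and 454 TPM). ATP5IF1, the inhibitor that stops ATP synthase running in reverse, averaged 105 ± 23.7 TPM in metformin libraries and 101 ± 4.63 TPM in control libraries and was not called (log2 fold change 0.02). The read-through gene ATP5MF-PTCD1 averaged 7.41 ± 4.29 TPM in metformin libraries and 13.9 ± 4.13 TPM in control libraries, with 2.65% of its exon reads unique, so its level is uncertain.

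Summed over each complex, the ranges of the structural subunits overlapped between groups. The 4 subunits of complex II summed to 426 ± 82.7 TPM in metformin libraries and 441 ± 8.20 TPM in control libraries (SD, n = 6). The 10 of complex III summed to 2825 ± 476 TPM in metformin libraries and 2542 ± 168 TPM in control libraries. The 16 of complex IV summed to 4437 ± 1453 TPM in metformin libraries and 3497 ± 304 TPM in control libraries. The 18 of complex V summed to 7160 ± 935 TPM in metformin libraries and 6336 ± 296 TPM in control libraries. The 4 complex II assembly factors summed to 52.7 ± 4.89 TPM in metformin libraries and 97.6 ± 3.53 TPM in control libraries, and their ranges, 46.3 to 58.4 TPM in metformin and 93.4 to 103 TPM in control libraries, did not overlap. That sum holds SDHAF2, whose call is uncertain. The 3 factors of complex III summed to 120 ± 40.7 TPM in metformin libraries and 132 ± 7.11 TPM in control libraries. The 9 of complex IV summed to 265 ± 28.2 TPM and 293 ± 8.64 TPM in the same order. Both overlapped between groups, with metformin replicate 1 highest at 202 and 320 TPM. Without that library the metformin to control ratio of structural subunits was 1.04 in complex II, 1.04 in III, 1.11 in IV and 1.07 in V. For assembly factors the ratio was then 0.53 in complex II, 0.78 in III and 0.87 in IV. In complex II the structural sum was then 460 ± 12.5 TPM in metformin libraries (446.7 to 476 TPM), against 425 to 448 TPM in control libraries. In complex V the structural sum was then 6802 ± 367 TPM in metformin libraries.

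Metformin replicate 1 differed from the other metformin libraries by gene. In it ATP5F1D had 819 TPM, against 191 to 285 TPM in the other 5, and ATP5ME 796 TPM, against 231 to 352 TPM. SDHD had 23.2 TPM, against 81.4 to 90.8 TPM in the other 5 metformin libraries. Over the 60 members the log2 ratio, on the TPM + 1 scale, of replicate 1 to the mean of the other 5 fell with exon length, with a Spearman rho of -0.50, a description over genes measured in the same libraries. Of 32 tested members with exons under 2000 bp, 27 were above that mean in it, among them all 17 of complexes III and IV, and 5 were below, namely SDHAF3, SDHAF4, SDHB, ATP5F1B and ATP5F1C.

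**Figure D4:**
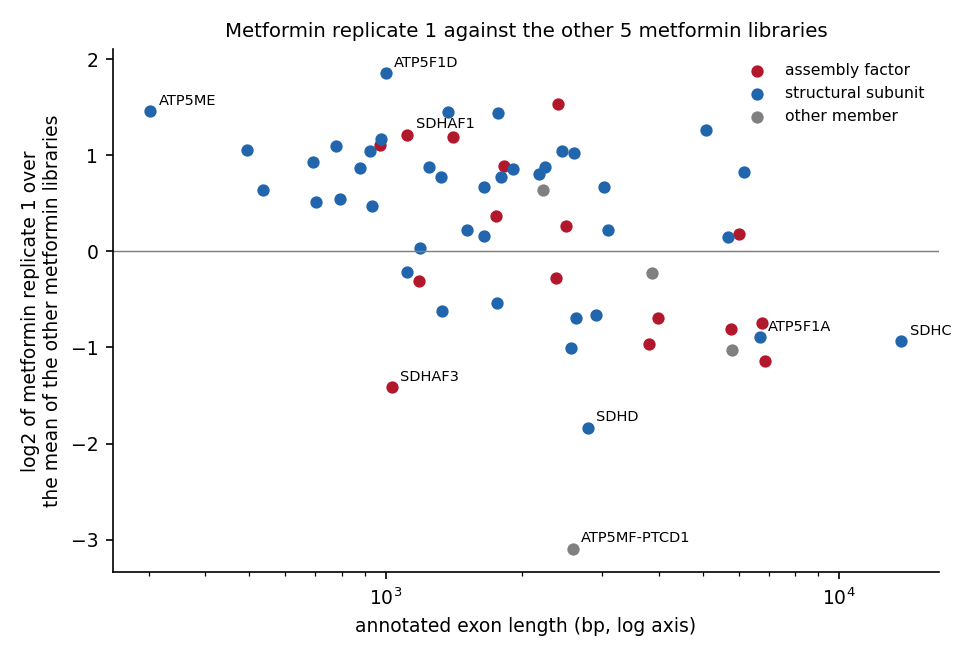
Log2 ratio, on the TPM + 1 scale, of metformin replicate 1 to the mean of the other 5 metformin libraries against annotated exon length (log axis) for the 60 tested members. ATP5F1D is highest at 1.86, ATP5MF-PTCD1 lowest at -3.09, and 9 of the 15 members with over 3000 bp lie below 0.

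Intron reads, which can come from RNA not yet spliced, gave a view apart from TPM. Their origin was not tested. MT-ATP6, annotated with 1 exon, also had such reads and was called lower in them (log2 fold change -1.05, edgeR adjusted p = 0.000185). Their levels are given as CPM, a share of a library's intron reads not corrected for length. EdgeR tested 11118 genes that averaged 10 such reads or more, among them 55 members. Of these 17 were higher (30.9%) and 14 lower (25.5%) in metformin, beside 31.3% and 30.2% of all genes tested, so the members' shares were near those of all genes. Without metformin replicate 1 they were 19 higher and 20 lower, beside 36.4% and 38.0%. Of 13 assembly factors 4 were higher and 7 lower, and of 39 structural subunits 12 were higher and 7 lower. With that library left out the structural subunits were 14 higher and 12 lower, and the assembly factors again 4 higher and 7 lower. Kit and counting are not known to separate strands, so intron reads of overlapping genes cannot be told apart.

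SDHAF3 and SDHAF4 were low in both exon and intron reads. SDHAF4 had 2.87 to 13.8 intron CPM (median 5.03) in metformin libraries, against 15.3 to 30.5 (median 23.2) in control libraries, with an intron log2 fold change of -2.05 (edgeR adjusted p = 5.71e-05). SDHAF3 had 1.97 to 10.1 intron CPM (median 3.31) in metformin libraries, against 10.7 to 25.2 (median 13.6) in control libraries, with an intron log2 fold change of -1.85 (edgeR adjusted p = 0.00057). UQCC1 fell likewise, with an intron log2 fold change of -1.30 (edgeR adjusted p = 3.12e-07), and COX10 with an intron log2 fold change of -0.91 (edgeR adjusted p = 0.00112). These were the 4 members that edgeR called lower in both kinds of read. SDHA, SDHB and COX7A2 rose in intron reads. SDHB had 96.4 to 150 intron CPM (median 132) in metformin libraries, against 58.4 to 73.5 (median 67.0) in control libraries, with an intron log2 fold change of 0.98 (edgeR adjusted p = 1.47e-05). COX7A2 had 106 to 280 intron CPM (median 237) in metformin libraries, against 45.2 to 69.6 (median 58.0) in control libraries. Its intron log2 fold change was 1.95 (edgeR adjusted p = 1.62e-06). TMEM30A lies 2601 bp upstream of COX7A2 on the same strand. It averaged 60.3 TPM in metformin libraries and 66.6 TPM in control libraries. Whether the intron reads of COX7A2 come from its own transcript was not tested. SDHA had 222 to 455 intron CPM (median 358) in metformin libraries, against 75.4 to 99.5 (median 89.9) in control libraries, with an intron log2 fold change of 2.00 (edgeR adjusted p = 1.53e-07), but 0% of its intron reads were unique. UQCRH and COX7B, higher in TPM, were higher in intron reads also, by 1.08 and 1.11 on the log2 scale.

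In 2 genes the calls were opposite. COX18, lower in exon reads, had 11.8 to 55.4 intron CPM (median 31.2) in metformin libraries, against 4.74 to 12.6 (median 6.45) in control libraries, with an intron log2 fold change of 2.13 (edgeR adjusted p = 0.000146), and its groups overlapped through metformin replicate 1 at 11.8. COX15, also lower in exon reads, had 150 to 203 intron CPM (median 170) in metformin libraries, against 126 to 137 (median 126) in control libraries. Its intron log2 fold change was 0.42 (edgeR adjusted p = 0.00572), but 0% of its intron reads were unique. The protein-coding gene AL133353.2 lies over COX15 on the same strand and CUTC on the other strand. In 10 members intron reads were called lower where edgeR did not call the exon reads, and in 5 they were called higher. A gene without an exon call is not shown to be unchanged. The share of all genes with either pattern was not counted. ATP5MC1 had 16.5 to 51.9 intron CPM (median 27.9) in metformin libraries, against 106 to 186 (median 141) in control libraries, with an intron log2 fold change of -2.20 (edgeR adjusted p = 9.56e-06), while its exon log2 fold change with edgeR was 0.83 (adjusted p = 0.086). ATP5MC2 had 27.3 to 74.8 intron CPM (median 41.6) in metformin libraries, against 97.7 to 130 (median 118) in control libraries, with an intron log2 fold change of -1.42 (edgeR adjusted p = 6.57e-05). ATP5MC3, the third gene of subunit c, went the other way with an intron log2 fold change of 0.98 (edgeR adjusted p = 9.77e-05). All 3 subunit c genes kept these intron calls without metformin replicate 1.

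**Figure D5:**
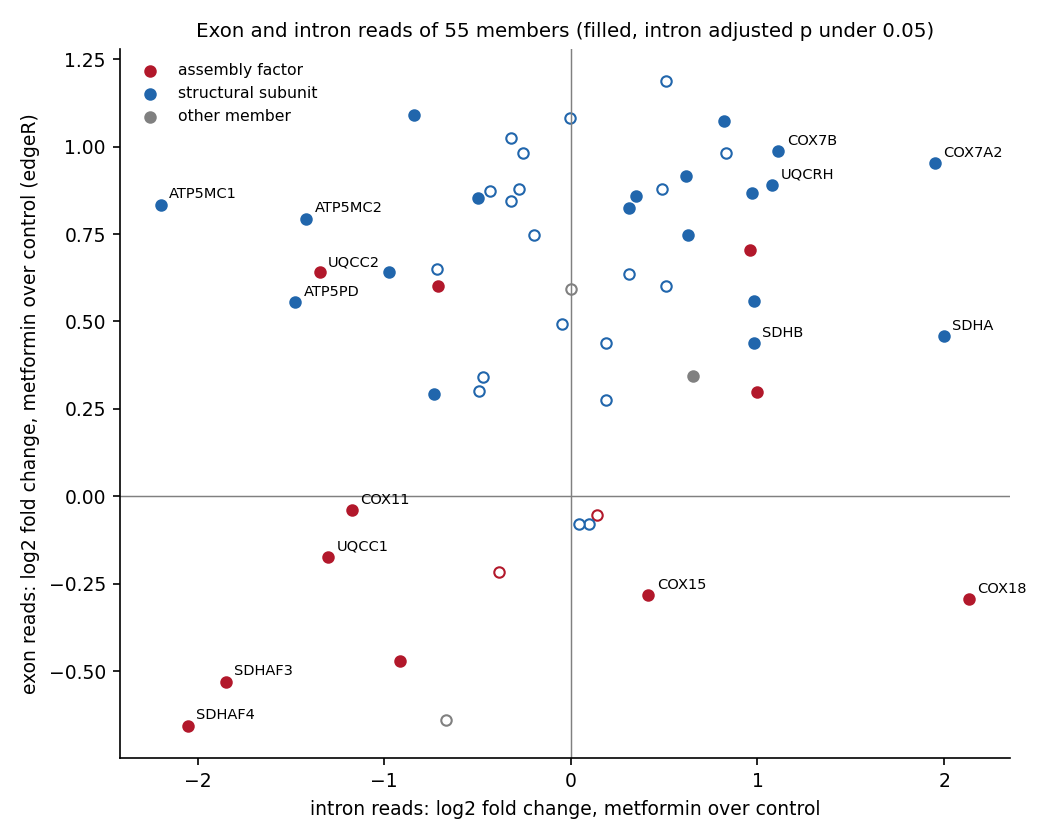
Log2 fold change of exon reads (edgeR, vertical) against that of intron reads (edgeR, horizontal) for 55 members, metformin over control. Filled points passed an adjusted p of 0.05 in intron reads. SDHAF3, SDHAF4 and UQCC1 lie at the lower left, COX15 and COX18 at the lower right, and ATP5MC1 and ATP5MC2 at the upper left.

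Promoters of the members were searched for motifs of factors known to drive respiratory chain genes. RefSeq (GRCh38.p14) gave 300 bases for 53 members, 250 before and 50 after the start, and 49 of the tested members had one. The motif GCGCANGCG of NRF1, on either strand, was in 38.8% of these, and in 9.02% of all promoters in the table and 17.9% of those of all genes tested. It was in 6 of 14 assembly factors (42.9%) and 13 of 32 structural subunits (40.6%), and in 5 of the 10 members lower in TPM and 1 of the 3 higher. The ETS core CCGGAAG was in 44.9% of member promoters, against 12.2% of all promoters and 23.7% of those of genes tested. The YY1 motif AAGATGGC was in 14.3%, against 3.52% and 7.01%, and the SP1 motif GGGGCGGGG in 18.4%, against 18.5% and 33.6%. A match is a description of letters in this window only. The sequences of SDHAF3, SDHAF4, COX18 and UQCRFS1, which were lower, and of COX6A1, which was higher, are given in the gene's direction with NRF1 motifs in capitals.
SDHAF3, chr7:97117448-97117747, plus strand: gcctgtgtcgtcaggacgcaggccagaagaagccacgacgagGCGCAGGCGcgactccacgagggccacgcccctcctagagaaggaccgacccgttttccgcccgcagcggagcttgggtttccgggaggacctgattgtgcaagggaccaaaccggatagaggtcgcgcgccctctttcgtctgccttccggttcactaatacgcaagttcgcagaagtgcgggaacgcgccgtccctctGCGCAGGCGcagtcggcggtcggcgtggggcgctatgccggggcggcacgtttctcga
SDHAF4, chr6:70566680-70566979, plus strand: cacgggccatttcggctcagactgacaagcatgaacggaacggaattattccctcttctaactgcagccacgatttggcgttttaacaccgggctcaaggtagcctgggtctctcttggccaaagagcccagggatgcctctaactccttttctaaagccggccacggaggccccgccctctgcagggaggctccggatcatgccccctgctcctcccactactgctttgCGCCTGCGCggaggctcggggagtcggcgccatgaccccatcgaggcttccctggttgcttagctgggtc
COX18, chr4:73069667-73069966, minus strand: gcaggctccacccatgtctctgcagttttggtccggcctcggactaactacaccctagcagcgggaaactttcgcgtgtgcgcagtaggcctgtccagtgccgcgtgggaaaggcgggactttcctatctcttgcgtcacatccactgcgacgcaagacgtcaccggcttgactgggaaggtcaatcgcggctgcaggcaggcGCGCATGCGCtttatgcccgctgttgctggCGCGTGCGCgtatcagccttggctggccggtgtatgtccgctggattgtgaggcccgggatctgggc
UQCRFS1, chr19:29213102-29213401, minus strand: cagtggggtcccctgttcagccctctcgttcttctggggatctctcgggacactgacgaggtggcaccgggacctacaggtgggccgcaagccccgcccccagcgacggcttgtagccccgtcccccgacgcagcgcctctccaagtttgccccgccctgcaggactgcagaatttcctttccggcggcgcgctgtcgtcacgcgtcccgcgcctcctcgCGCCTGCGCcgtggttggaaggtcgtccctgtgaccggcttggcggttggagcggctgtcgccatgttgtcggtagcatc
COX6A1, chr12:120437863-120438162, plus strand: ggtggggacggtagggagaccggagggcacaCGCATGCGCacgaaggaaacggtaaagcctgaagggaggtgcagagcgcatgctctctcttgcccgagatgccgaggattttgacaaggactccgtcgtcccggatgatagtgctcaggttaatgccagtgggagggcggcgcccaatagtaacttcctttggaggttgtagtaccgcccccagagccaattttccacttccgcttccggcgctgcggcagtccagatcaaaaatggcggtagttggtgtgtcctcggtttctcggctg
Both SDHAF3 motifs read GCGCAGGCG, SDHAF4, UQCRFS1 and COX6A1 each hold 1, and COX18 holds an overlapping pair and 1 more, so the motif was in lower genes and in a higher one.

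Genes outside the rule were counted from lists. Of 37 other factors of complexes II to V, such as SCO1 and PET117, 2 were higher (5.41%) and 19 lower (51.4%) in TPM. Of all genes 8.00% were higher and 41.8% lower. After scaling 4 factors were higher (10.8%) and 9 lower (24.3%), where 23.4% and 25.5% of all genes were. TMEM177, a partner of COX20 in COX2 assembly, had the largest fall, with a mean of 2.42 ± 0.30 TPM in metformin libraries and 33.4 ± 1.17 TPM in control libraries (log2 fold change -3.34 ± 0.08, limma adjusted p = 1.69e-10). NDUFA4, counted with complex IV, rose most, with 217 ± 60.4 TPM in metformin libraries and 154 ± 15.2 TPM in control libraries (log2 fold change 0.46 ± 0.15, limma adjusted p = 0.0246). All 6 mitochondrial DNA genes of complexes III to V were lower in TPM, MT-CO3 most at -1.03. After scaling only 1 of 6 was, where 25.5% of all genes were. After scaling without metformin replicate 1, 5 of 6 were lower, where 33.3% of all genes were. Of 38 nuclear complex I subunits 0 were higher and 3 lower (7.89%, where 41.8% of all genes were), NDUFV3 most at -1.64, with a median log2 fold change of 0.09. Leaving out metformin replicate 1, 9 of the 38 were lower in TPM (23.7%), where 49.3% of all genes were. After scaling 1 was higher with all libraries (2.63%) and 10 without that library (26.3%), where 23.4% and 33.9% of all genes were. With all libraries edgeR called 9 higher (23.7%), where 24.5% of all genes were. Of 78 mitochondrial ribosomal proteins 2 were higher (2.56%) and 42 lower (53.8%) in TPM, where 8.00% and 41.8% of all genes were, with MRPS6 at 1.59 and MRPL50 at -1.18 as the extremes. Their median was -0.32 in TPM and 0.11 after scaling, where 4 were higher and 9 lower (5.13% and 11.5%, against 23.4% and 25.5% of all genes). After scaling without metformin replicate 1 the median was -0.08. There 4 were higher and 27 lower (5.13% and 34.6%, against 33.9% and 33.3% of all genes).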

How the data were processed

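RNA of 12 LN229 cultures (6 metformin, 6 control; groups from the labels) was extracted with TRIzol, made into libraries with the SMARTER mRNA-Seq kit and sequenced on an Illumina NextSeq instrument. The deposited tables hold 1 row per gene, with exon and intron read counts, unique read counts, RPKM and TPM that the authors computed. The sources used here do not give the aligner, the counter or the strandedness. The submitters' notes name GRCm38 and mm10, a mouse build, but all 68 member identifiers are human and in GENCODE 29, 27 with the same start and end. Deposited TPM values were tested with limma 3.58.1 (trend) on log2(TPM + 1) in genes that averaged 1 TPM or more, with condition as the only term, and deposited intron counts with edgeR 4.0.16 (TMM, quasi-likelihood) in genes that averaged 10 reads or more. Intron CPM is edgeR's, on TMM-scaled totals. Adjusted p-values are Benjamini-Hochberg over all genes tested, with a threshold of 0.05. Deposited RPKM values and exon counts served as alternatives, the counts with edgeR and DESeq2 1.42.0, beside median-ratio scaling, quantile normalization, other filters, a pseudocount of 0.1 and leaving out each library. On simulated data limma recovered 93 of 100 genes changed by 0.5 (log2) and all 100 changed by 1, with 12 false calls. The simulated spread was that of the control libraries, with no library set apart like metformin replicate 1. Few genes were changed, and none with low counts, so recovery in the real libraries can be lower. Counts of any pair of libraries differed by more than sampling noise.

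The members and lists were chosen with earlier results of these data known. Values are given for subunits fixed by role, for isoform sets, for the called members with the largest increase and decrease in each complex and role, for members with opposite exon and intron calls or a call that turned its sign between fits, and for the extremes of each neighbouring list. Other members described beside them, among them further complex II to IV assembly factors and members that depend on replicate 1, were chosen after their values were seen. Overlapping genes (another protein-coding gene over 31 members) share reads that cannot be told apart.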

Additional observations from a re-analysis of the deposited data

Results flagged for a closer look

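In 70 groups of 6 values, 18 had a sample set apart by more than Dixon's 95% critical value, where chance gives about 1 in 20, and 17 of the 18 were metformin replicate 1. In that library SDHA had 119 TPM, SDHB 107 TPM, SDHC 9.31 TPM and SDHD 23.2 TPM, all below the other metformin libraries, and the complex II subunits summed to 259 TPM. Low there too were UQCC1 at 15.6 TPM, UQCRC2 at 90.4 TPM, CYCS at 83.3 TPM, COX10 at 3.57 TPM, ATP5F1A at 173 TPM and ATP5F1B at 1601 TPM. High there were COX4I1 at 669 TPM, COX5A at 506 TPM, COX6B1 at 629 TPM, COX8A at 1800 TPM, ATP5MC1 at 948 TPM and ATP5MC2 at 454 TPM. The remaining one was control replicate 6, where the complex II subunits summed to 425 TPM.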

How the results depend on the processing

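In TPM 3 members were higher and 10 lower, and of all genes 905 were higher and 4725 lower. Higher members numbered 13 after median-ratio scaling, 20 with edgeR, 30 with DESeq2, 1 with RPKM and 5 without a filter, and lower members 5, 6 and 6 under the first 3 of these. Of all genes, 2649 were higher and 2887 lower after median-ratio scaling, 2768 and 2937 with edgeR, 3267 and 2987 with DESeq2, 2342 and 3073 after quantile normalization, and 1642 were higher without a filter. The structural median was 0.60 after median-ratio scaling, 0.81 with edgeR and 0.85 with DESeq2. The assembly median was -0.091 after median-ratio scaling, -0.085 with DESeq2, -0.11 with edgeR, -0.43 with RPKM and -0.10 after quantile normalization, where the assembly minus structural difference was -0.19. Sums after median-ratio scaling gave metformin to control ratios of 1.29 in complex II, 1.64 in III, 1.95 in IV and 1.65 in V. In genes averaging 50 intron reads or more, 11 members were higher, and of all genes 1995 were higher and 1896 lower. The cause was not tested, beyond fewer genes being tested in the last case.

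The following fits were chosen after seeing the data. With unique exon reads (edgeR), 21 members were higher and 6 lower, 2748 and 2906 of all genes, with a structural median of 0.85 and an assembly median of -0.019. Without metformin replicate 1, edgeR gave 21 higher members, 3666 higher genes and an assembly median of -0.21, and median-ratio scaling 22, 3834 and -0.17. Unique intron reads moved no count by over 1.5 times.

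The sign turned, with a call under at least 1 of the fits, in ATP5F1A (0.31 DESeq2, 0.28 edgeR and unique reads, 0.31 median-ratio, and without metformin replicate 1 0.26 edgeR and 0.28 median-ratio), in SDHC (0.18, 0.15 and 0.16, 0.17, 0.15 and 0.16 in the same order, and 0.20 after quantile normalization), in UQCRC2 (0.33, 0.30 and 0.30, 0.33, 0.30 and 0.32), in ATP5PB (0.37, 0.34 and 0.35, 0.36, 0.29 and 0.31), in COX7A2L (0.38 DESeq2, 0.20 median-ratio without metformin replicate 1) and, with unique reads, in SDHAF2 (0.029) and COX20 (0.0072), which were lower in TPM. ATP5F1C turned without a call (0.32 DESeq2, 0.29 edgeR and median-ratio).

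Leaving out 1 library at a time gave 0 to 8 higher and 9 to 16 lower members, 811 to 1933 and 4156 to 5574 genes, 14 to 19 and 13 to 20 members in intron reads, 3127 to 4052 and 3149 to 4227 genes in intron reads, a structural median of 0.04 to 0.22, an assembly median of -0.55 to -0.43, a difference of -0.78 to -0.47, and ratios of sums of 0.945 to 1.04 in complex II, 1.04 to 1.15 in III, 1.11 to 1.34 in IV and 1.07 to 1.16 in V. The calls of 8 higher and 16 lower came without metformin replicate 1, 0 higher without metformin replicate 2, and 1 higher without control replicate 2, 3 or 4.

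Metformin and control libraries of the same number shared only a number: their deviations correlated at 0.59, -0.39, 0.73, 0.25, -0.28 and -0.64, and 1 of 6 metformin libraries matched its own number best. The replicate block is given here only. With the replicate block 3 members were higher and 10 lower in TPM, and 14 higher and 18 lower in intron reads.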
